A study of Mus musculus with 16 samples.

Results

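The miR-99/100 and miR-125 families were followed in primary cultures of mouse forebrain neurons given 1 of 3 short hairpin RNAs, or no hairpin, by a lentiviral vector. The members were chosen by name: mmu-miR-99a-5p, mmu-miR-99a-3p, mmu-miR-99b-5p, mmu-miR-99b-3p, mmu-miR-100-5p, mmu-miR-125a-5p, mmu-miR-125a-3p, mmu-miR-125b-5p, mmu-miR-125b-1-3p and mmu-miR-125b-2-3p, given below without the species prefix. They are 10 of the 1978 mature miRNA names in the deposited counts. Of these, 9 passed the filter on low counts, as did 483 of all names, and miR-99a-3p did not. Members of 1 seed group did not share 1 fold change. MiR-99a-5p, the second most abundant miRNA of these cells, stood at 1.68-fold of the Empty_Vector with the shRNA_2bp hairpin and at 1.11-fold with shRNA_5bp. MiR-99b-5p, with the same seed, stood at 0.906-fold with shRNA_2bp and at 0.668-fold with shRNA_5bp. The values of 1.68 and 0.668 were called in every alternative analysis, whereas those of 1.11 and 0.906 were not.

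The 4 groups were a hairpin with 5 point mutations (shRNA_5bp), the same hairpin with 2 point mutations (shRNA_2bp), the unmutated hairpin (shRNA) and a vector without a hairpin (Empty_Vector), with 4 libraries each. All 16 came from perinatal mouse forebrain neurons in primary culture, and all 4 groups were transduced with lentivirus, so untransduced cells are not part of any comparison. The hairpin's target, the positions of the mutations, the promoter, the mouse strain and the time after transduction are not given in the sources used here. Whether replicate libraries stem from different cultures or animals is not stated, so p-values measure the spread between these libraries, which may be technical. The RNA is of whole cultures, in which fewer cells of a type and less RNA per cell cannot be told apart.

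A miRNA is cut from a hairpin precursor by Drosha and Dicer, and 1 strand of the resulting duplex, the guide, is kept by an Argonaute protein, while the other is mostly degraded. A guide recognises target mRNAs chiefly through its seed, bases 2 to 8. MiR-125 is the vertebrate relative of lin-4, which times larval development in the worm Caenorhabditis elegans together with let-7. In mammals miR-125b is known for its part in neuronal differentiation and at dendritic spines, and miR-99 and miR-100 for lowering components of mTOR and IGF1 receptor signalling. The genes of both families lie in clusters with a let-7 gene and are transcribed with it. A short hairpin RNA enters the same route as a precursor, at the step of nuclear export and Dicer, and the study asked how hairpins alter endogenous miRNAs apart from any target.

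The guides fall into 2 seed groups, which the following RefSeq sequences (GRCm38.p6) show, with the seed in capitals. They are printed because members of 1 seed group are compared throughout.
miR-99a-5p: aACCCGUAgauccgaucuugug
miR-100-5p: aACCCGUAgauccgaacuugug
miR-99b-5p: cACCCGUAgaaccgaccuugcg
miR-125a-5p: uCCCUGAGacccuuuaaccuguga
miR-125b-5p: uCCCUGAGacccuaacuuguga

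MiR-99a-5p and miR-100-5p differ at 1 position, U16A counted from 1 at the 5′ end of miR-99a-5p, and miR-99b-5p differs from miR-99a-5p at 4 positions (A1C, U11A, U16C and U21C). MiR-125a-5p and miR-125b-5p share their first 13 bases. Mature sequences were found for 10 of the 10 members. How the authors assigned reads that match both miR-99a-5p and miR-100-5p, as shortened or edited molecules can, is not given in the sources used here, so their counts are separate only as far as that assignment was. Outside the members, the seed CCCUGAG is carried by miR-351-5p, miR-6367 and miR-6394. The last 2 had 0 counts in all 16 libraries.

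MiR-125b-5p has the same sequence from both of its genes, so its counts hold the output of both. The opposite strands differ and tell the genes apart, and they are shown for that reason, again with bases 2 to 8 in capitals.
miR-125b-1-3p: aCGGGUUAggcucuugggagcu
miR-125b-2-3p: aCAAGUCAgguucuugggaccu

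The hairpins below show how a guide and its opposite strand face each other, with both mature strands in capitals. They were chosen because the ratio between these strands was measured. RefSeq held 4 of the 6 member hairpins (Mir99a, Mir100, Mir125a and Mir125b-1), and Mir99b and Mir125b-2 are the other two.
Mir125a: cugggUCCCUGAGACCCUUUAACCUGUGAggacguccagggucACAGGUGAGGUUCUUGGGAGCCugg
Mir125b-1: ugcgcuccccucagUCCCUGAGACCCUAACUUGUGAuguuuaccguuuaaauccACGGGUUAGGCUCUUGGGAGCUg

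The 6 genes lie in 3 clusters, all on the plus strand (GRCm38.p6). On chromosome 17, Mir99b (chr17:17830188-17830257) is followed after 94 bases by Mirlet7e (chr17:17830352-17830444) and after a further 367 bases by Mir125a (chr17:17830812-17830879). All 3 lie within Spaca6, and Mir125a overlaps an annotated exon of it. On chromosome 16, Mir99a (chr16:77598936-77599000) stands 656 bases before Mirlet7c-1 (chr16:77599657-77599750), and Mir125b-2 (chr16:77646273-77646343) follows 46522 bases later. These 3 lie within the long non-coding RNA gene Mir99ahg, the first 2 in introns and Mir125b-2 over an exon of the overlapping gene C130023A14Rik. On chromosome 9, Mir100 (chr9:41531425-41531504) stands 5211 bases before Mirlet7a-2 (chr9:41536716-41536811), and Mir125b-1 (chr9:41581926-41582002) lies a further 45114 bases on. All 3 lie within Mir100hg, and Mir125b-1 also overlaps an exon of Gm28119.

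Library totals ran from 831859 to 2496036 counts with shRNA_5bp, 1177068 to 2097782 with shRNA_2bp, 5304461 to 8061785 with shRNA and 2760894 to 11139163 with the Empty_Vector, so depth differed with the group. Levels are given in CPM, counts-per-million after scaling of the library totals by TMM, a method that sets most miRNAs to no change on average. A count of 3, taken as the detection floor of a library, equals 1.20 to 3.61 CPM with shRNA_5bp, 1.43 to 2.55 CPM with shRNA_2bp, 0.372 to 0.566 CPM with shRNA and 0.269 to 1.09 CPM with the Empty_Vector. Reads were amplified without molecular identifiers, so floors cover counting error only.

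Most lists of miRNAs that mark cell types differed between groups. The 8 neuron-enriched miRNAs listed, all measured, summed to 317577 to 373377 CPM with shRNA_5bp, 339653 to 369559.6 with shRNA_2bp, 397152 to 450711 with shRNA and 504549.7 to 540276 with the Empty_Vector. MiR-128-3p made up most of this sum. Its mean was 243455 CPM with shRNA_5bp, 240704 with shRNA_2bp, 331124 with shRNA and 427008 with the Empty_Vector. Of the 8 names, 5 were called higher and 1 lower than the Empty_Vector with shRNA_5bp, and 4 and 3 with shRNA_2bp. With shRNA 3 were higher and 1 lower, so the list did not fall as a whole. Over all tested miRNAs 31.5% were called higher and 26.7% lower with shRNA_5bp, and 33.3% and 32.3% with shRNA_2bp. With shRNA the shares were 19.7% and 15.1%. Of the 4 astroglial names 3 were tested, and their sum was 2069 to 2393 CPM with shRNA_5bp, 3433 to 3710 with shRNA_2bp, 2012 to 2222 with shRNA and 1787 to 2003 with the Empty_Vector. Of these 3, 2 were called higher than the Empty_Vector with shRNA_5bp, 3 with shRNA_2bp and 2 with shRNA, and 0 were lower. Of the 5 names of vessels and fibroblasts 4 were tested, with sums of 1070.0 to 1191 CPM with shRNA_5bp, 1096 to 1253 with shRNA_2bp, 637 to 724 with shRNA and 677 to 785 with the Empty_Vector. MiR-126a-3p made up most of this sum, with a mean of 1099 CPM with shRNA_5bp and 735 with the Empty_Vector. Of the 4, 4 were called higher than the Empty_Vector with shRNA_5bp, 2 with shRNA_2bp and 0 with shRNA, and 0 were lower. Of the 4 oligodendrocyte names 2 were tested, with sums of 106 to 154 CPM with shRNA_5bp, 151 to 176 with shRNA_2bp, 115 to 132 with shRNA and 119 to 150 with the Empty_Vector. Against the Empty_Vector 1 of them was called higher with shRNA_2bp and 0 with the other hairpins, and 0 were lower. The 6 microglial names, 2 of them tested, summed to 65.7 to 86.3 CPM with shRNA_5bp, 88.7 to 104 with shRNA_2bp, 77.8 to 106 with shRNA and 51.1 to 61.4 with the Empty_Vector. Of these 6, miR-223-3p and miR-142a-3p had 0 counts in every library. The mean of miR-146a-5p was 73.7 CPM with shRNA_5bp, 93.3 with shRNA_2bp, 73.7 with shRNA and 52.6 with the Empty_Vector. Of the 2 tested names, 1 was called higher than the Empty_Vector with shRNA_5bp, 1 with shRNA_2bp and 2 with shRNA, and 0 were lower. The 2 erythroid names reached at most 2.45 CPM, with miR-144-3p at 0 throughout. Every list but the erythroid one, which was near the floor, had groups whose sums did not overlap. The part of any list in the results that follow was not tested.

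The members together held 14.6 ± 0.65% of all counts with shRNA_5bp, 20.4 ± 0.58% with shRNA_2bp, 11.4 ± 0.57% with shRNA and 11.6 ± 0.53% with the Empty_Vector (SD, n = 4). MiR-99a-5p alone held 11.2 ± 0.45%, 16.3 ± 0.51%, 8.32 ± 0.39% and 8.57 ± 0.57% in that order of groups. It ranked second among all names in every group, after miR-128-3p, which held 26.0 ± 1.98% with shRNA_5bp, 24.7 ± 0.62% with shRNA_2bp, 33.1 ± 1.21% with shRNA and 38.7 ± 0.75% with the Empty_Vector. The plot of 5p levels by library shows how far the members differ in abundance.

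**Figure D1:**
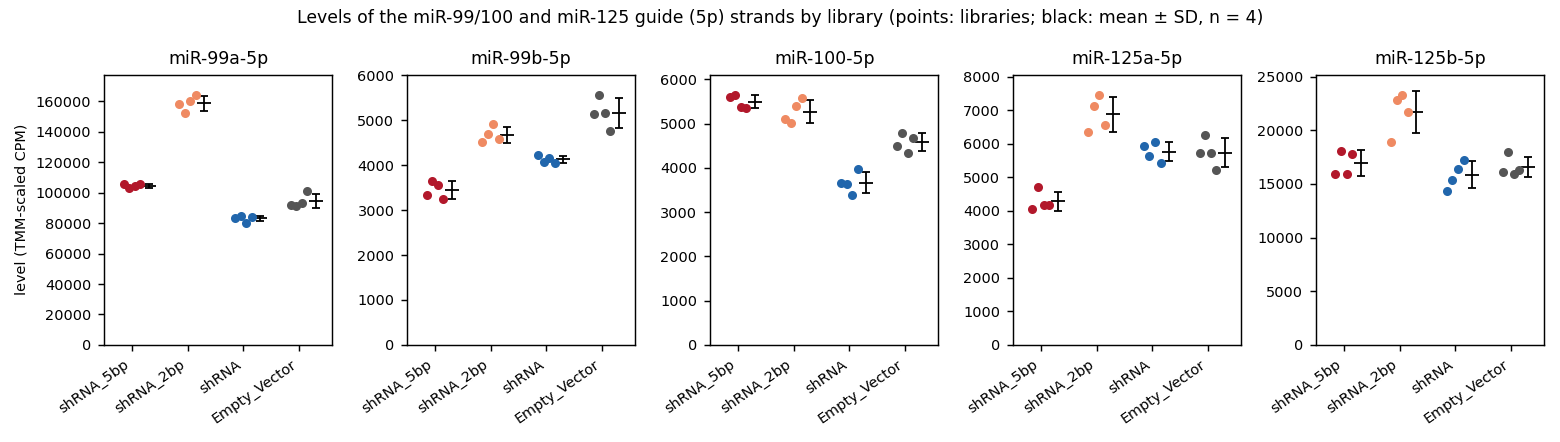
Level of each 5p strand (CPM, linear axis from 0, a separate scale per panel) in the 4 libraries of each group; points are libraries, and the black mark is the mean ± SD (n = 4). The shRNA_2bp libraries of miR-99a-5p sit at 152431 to 164549 CPM, above every other library, and the shRNA_5bp libraries of miR-99b-5p and miR-125a-5p sit below every other library of that strand.

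In the order of levels, miR-99a-5p stood first and miR-125b-5p second in every group, without overlap between them. The remaining guides changed places. With shRNA_5bp the order was miR-100-5p (5502 ± 154 CPM), miR-125a-5p (4283 ± 291) and miR-99b-5p (3450 ± 191), and with shRNA_2bp it was miR-125a-5p (6875 ± 514), miR-100-5p (5272 ± 266) and miR-99b-5p (4677 ± 176). With shRNA it was miR-125a-5p (5765 ± 274), miR-99b-5p (4128 ± 83.2) and miR-100-5p (3668 ± 240), and in these 3 groups no neighbours overlapped. With the Empty_Vector it was miR-125a-5p (5731 ± 429), miR-99b-5p (5165 ± 329) and miR-100-5p (4578 ± 205), and the libraries of each neighbouring pair overlapped. Mature members are 21 to 24 bases long, so levels need no correction for length, but adapter ligation can favour 1 sequence over another and was not measured here.

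MiR-99a-5p, the dominant member, had 105451, 102893, 104694 and 105793 CPM with shRNA_5bp, 158038, 152431, 160338 and 164549 CPM with shRNA_2bp, 83310, 84796, 80421 and 83984 CPM with shRNA, and 91833, 91535, 93172 and 101025 CPM with the Empty_Vector. No 2 groups overlapped. Against the Empty_Vector its log2 fold change was 0.15 ± 0.05 with shRNA_5bp (SE, adjusted p = 0.00881), 0.75 ± 0.05 with shRNA_2bp (adjusted p = 5.84e-14) and -0.18 ± 0.05 with shRNA (adjusted p = 0.00338). Against shRNA it was 0.33 ± 0.05 with shRNA_5bp (adjusted p = 1.2e-06) and 0.93 ± 0.05 with shRNA_2bp (adjusted p = 3.46e-16). It was -0.60 ± 0.05 with shRNA_5bp against shRNA_2bp (adjusted p = 1.09e-11). The rise with shRNA_2bp, over either control, and the gap between the mutated hairpins held in every alternative run, whereas the small changes did not. For shRNA_5bp against the Empty_Vector the value was 0.09 with RLE size factors, 0.09 with DESeq2 and 0.07 with only these 2 groups, none of them called, and it was -0.08 without the filter on low counts.

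Leaving out 1 library at a time also moved those small values of miR-99a-5p. The call of shRNA_5bp against the Empty_Vector was lost in 9 of 16 such fits, at 0.04 to 0.12, on leaving out Empty_Vector replicate 2 or 3, shRNA replicate 1, 2 or 3, shRNA_2bp replicate 3 or 4, or shRNA_5bp replicate 2 or 4. That of shRNA against the Empty_Vector was lost without Empty_Vector replicate 3 or shRNA replicate 1, 2 or 3, at -0.12 to -0.10, and with library totals alone (-0.04, adjusted p = 0.542). For shRNA_5bp against shRNA the value stayed called but came to 0.16 to 0.18 without Empty_Vector replicate 2 or 3, shRNA replicate 1, 2 or 3, or shRNA_5bp replicate 4, and it was not called without the filter (0.12, adjusted p = 0.0766). The Empty_Vector is not part of this comparison. Without its replicate 2 all 9 tested members shifted together, by -0.152 to -0.146.

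MiR-100-5p, 1 base away from miR-99a-5p and from the chromosome 9 cluster, had 5609, 5659, 5373 and 5366 CPM with shRNA_5bp, 5096, 5012, 5392 and 5588 CPM with shRNA_2bp, 3670, 3638, 3389 and 3974 CPM with shRNA, and 4502, 4797, 4330 and 4681 CPM with the Empty_Vector. Both mutated hairpins lay above shRNA and the Empty_Vector, and overlapped each other. Its log2 fold change against the Empty_Vector was 0.27 ± 0.06 with shRNA_5bp (adjusted p = 0.000153), 0.20 ± 0.06 with shRNA_2bp (adjusted p = 0.00205) and -0.32 ± 0.06 with shRNA (adjusted p = 3.45e-05). Against shRNA it rose by 0.59 ± 0.06 with shRNA_5bp (adjusted p = 4.66e-10) and by 0.52 ± 0.06 with shRNA_2bp (adjusted p = 2.27e-09). Between shRNA_5bp and shRNA_2bp the difference was 0.06 (95% interval -0.05 to 0.18, adjusted p = 0.349). Without the filter the rises over the Empty_Vector were 0.03 with shRNA_5bp and 0.10 with shRNA_2bp and were not called. The call with shRNA_2bp was also lost without shRNA_2bp replicate 3 (0.13) or 4 (0.11), and the value with shRNA_5bp, still called, was 0.16 without Empty_Vector replicate 3 and 0.18 without shRNA replicate 3.

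MiR-99b-5p, which shares the seed of both but comes from the chromosome 17 cluster, had 3345, 3657, 3558 and 3239 CPM with shRNA_5bp, 4511, 4691, 4917 and 4590 CPM with shRNA_2bp, 4233, 4063, 4155 and 4059 CPM with shRNA, and 5148, 5573, 5173 and 4767 CPM with the Empty_Vector. The shRNA_5bp libraries were the lowest, and shRNA_2bp overlapped the Empty_Vector. Against the Empty_Vector it fell by 0.58 ± 0.06 on the log2 scale with shRNA_5bp (adjusted p = 3.59e-10) and by 0.32 ± 0.05 with shRNA (adjusted p = 2.54e-05). With shRNA_2bp it fell by 0.14 ± 0.05 (adjusted p = 0.0241). Against shRNA it fell by 0.26 ± 0.05 with shRNA_5bp (adjusted p = 0.000216) and rose by 0.18 ± 0.05 with shRNA_2bp (adjusted p = 0.00524). Between shRNA_5bp and shRNA_2bp its log2 difference was -0.44 ± 0.06 (adjusted p = 7.4e-08).

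The small fall of miR-99b-5p with shRNA_2bp against the Empty_Vector changed sign with library totals alone (0.04, adjusted p = 0.526). Its call was lost in 9 of 16 fits without 1 library, at -0.13 to -0.08. Those libraries were Empty_Vector replicate 1, 2 or 3, shRNA replicate 1, 2 or 3, shRNA_2bp replicate 1 or 2 and shRNA_5bp replicate 4, while without Empty_Vector replicate 4 or shRNA_2bp replicate 3 it was -0.24 and -0.23. The rise over shRNA with shRNA_2bp was lost without shRNA_2bp replicate 3 (0.13) and without the filter (0.10). The fall with shRNA_5bp against shRNA stayed called and was between -0.42 and -0.40 without Empty_Vector replicate 2 or 3 or shRNA replicate 1, 2 or 3. The fall with shRNA_5bp against the Empty_Vector was -0.34 with library totals alone and called in every alternative.

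MiR-125a-5p, the chromosome 17 relative of lin-4, had 4065, 4711, 4179 and 4176 CPM with shRNA_5bp, 6349, 7128, 7467 and 6556 CPM with shRNA_2bp, 5938, 5643, 6040 and 5441 CPM with shRNA, and 5729, 6263, 5719 and 5211 CPM with the Empty_Vector. It was lowest with shRNA_5bp and highest with shRNA_2bp, without overlap, while shRNA and the Empty_Vector overlapped. Against the Empty_Vector it fell by 0.42 ± 0.06 on the log2 scale with shRNA_5bp (adjusted p = 1.58e-06) and rose by 0.26 ± 0.06 with shRNA_2bp (adjusted p = 0.000635). With shRNA the difference was 0.01 (95% interval -0.12 to 0.14, adjusted p = 0.932). Against shRNA it fell by 0.43 ± 0.06 with shRNA_5bp (adjusted p = 1.57e-06) and rose by 0.25 ± 0.06 with shRNA_2bp (adjusted p = 0.000883). Between the mutated hairpins the log2 difference was -0.68 ± 0.06 (adjusted p = 2.35e-10). The rise with shRNA_2bp over the Empty_Vector, still called, was 0.16 without Empty_Vector replicate 4 or shRNA_2bp replicate 3. The fall with shRNA_5bp stayed called but was -0.18 with library totals alone and -0.65 without the filter.

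MiR-125b-5p, with the same seed but from the clusters on chromosomes 9 and 16, had 15961, 18089, 15923 and 17830 CPM with shRNA_5bp, 18943, 22807, 23326 and 21738 CPM with shRNA_2bp, 14353, 15412, 16405 and 17240 CPM with shRNA, and 16110, 17935, 15962 and 16264 CPM with the Empty_Vector. The shRNA_2bp libraries lay above all others, and the other groups overlapped each other. With shRNA_2bp it rose by 0.39 ± 0.07 over the Empty_Vector (adjusted p = 8.9e-06) and by 0.45 ± 0.07 over shRNA (adjusted p = 8.47e-07). It was 0.03 (95% interval -0.10 to 0.17, adjusted p = 0.678) with shRNA_5bp against the Empty_Vector, and -0.06 (-0.20 to 0.07, adjusted p = 0.504) with shRNA. Against shRNA it was 0.10 with shRNA_5bp (adjusted p = 0.225), and against shRNA_2bp it fell by 0.36 ± 0.07 with shRNA_5bp (adjusted p = 3.72e-05). The value of shRNA_5bp against the Empty_Vector depended on the scaling. It was called at -0.20 without the filter (adjusted p = 0.0033) and at 0.28 with library totals alone (adjusted p = 0.00573).

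The 3p strands were scarcer by over an order of magnitude and behaved differently from their guides. MiR-125b-2-3p, from the chromosome 16 gene, had 179, 198, 169 and 215 CPM with shRNA_5bp, 129, 133, 120 and 118 CPM with shRNA_2bp, 119, 121, 130 and 136 CPM with shRNA, and 100.3, 118, 106 and 121 CPM with the Empty_Vector. The shRNA_5bp libraries lay above all others, which overlapped. Its log2 rise with shRNA_5bp was 0.78 ± 0.10 over the Empty_Vector (adjusted p = 4.48e-08), 0.60 ± 0.09 over shRNA (adjusted p = 3.87e-06) and 0.61 ± 0.10 over shRNA_2bp (adjusted p = 6.53e-06). Without shRNA_5bp replicate 4 the second of these was 0.39 and still called. With the other two hairpins it was 0.17 (shRNA_2bp) and 0.18 (shRNA) against the Empty_Vector (adjusted p = 0.134 each). The value with shRNA was called without shRNA replicate 1 or 2 (0.27 each), and both were called with library totals alone (0.35 with shRNA_2bp and 0.32 with shRNA). Between shRNA_2bp and shRNA it was -0.01 (95% interval -0.21 to 0.19, adjusted p = 0.929).

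MiR-125b-1-3p, from the chromosome 9 gene of the same guide, had 400.1, 405, 419 and 416 CPM with shRNA_5bp, 546, 468, 524 and 469 CPM with shRNA_2bp, 521, 453, 390.2 and 425 CPM with shRNA, and 586, 528, 556 and 505 CPM with the Empty_Vector. The shRNA_5bp libraries lay below those of shRNA_2bp and of the Empty_Vector. The strands opposite the same guide differed in sign with shRNA_5bp, where miR-125b-1-3p fell by 0.41 ± 0.08 against the Empty_Vector (adjusted p = 6.91e-05), though by 0.16 with library totals alone (adjusted p = 0.0722). It fell by 0.29 ± 0.08 with shRNA_5bp against shRNA_2bp (adjusted p = 0.00293). With shRNA it fell by 0.28 ± 0.08 against the Empty_Vector (adjusted p = 0.00449), a call lost without Empty_Vector replicate 3 or shRNA replicate 2 or 3 (-0.21 to -0.16) and with library totals alone (-0.14).

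The remaining differences of miR-125b-1-3p were near the threshold. With shRNA_2bp against the Empty_Vector it was -0.12 (adjusted p = 0.2), and -0.21 without Empty_Vector replicate 4 (adjusted p = 0.0346). Against shRNA it was 0.17 ± 0.08 with shRNA_2bp (adjusted p = 0.0663), and 0.17 with a replicate block (adjusted p = 0.0277). It was also called without Empty_Vector replicate 1, shRNA replicate 1 or shRNA_2bp replicate 2, at 0.18 to 0.22. With shRNA_5bp against shRNA it was -0.13 (adjusted p = 0.183), and it was called at -0.34 to -0.19 without Empty_Vector replicate 2 or 3, shRNA replicate 1, 2 or 3, or shRNA_5bp replicate 4.

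MiR-99b-3p, the strand opposite miR-99b-5p, had 212, 195, 185 and 174 CPM with shRNA_5bp, 137, 160.1, 158 and 132 CPM with shRNA_2bp, 178, 206, 181 and 175 CPM with shRNA, and 214, 197, 189 and 176 CPM with the Empty_Vector. Only the shRNA_2bp libraries stood apart, below all others. It fell by 0.40 ± 0.09 on the log2 scale with shRNA_2bp against the Empty_Vector (adjusted p = 0.000534) and by 0.33 ± 0.09 against shRNA (adjusted p = 0.00305). Between shRNA_5bp and shRNA_2bp the difference was 0.38 ± 0.10 (adjusted p = 0.00166), and it was not called with only those 2 groups (0.22, adjusted p = 0.0602) or without the filter (0.25, adjusted p = 0.0786). With shRNA_5bp against the Empty_Vector it was -0.02 (adjusted p = 0.868), but 0.22 with library totals alone (adjusted p = 0.0408). It was -0.07 with shRNA against the Empty_Vector (adjusted p = 0.597) and 0.05 with shRNA_5bp against shRNA (adjusted p = 0.681).

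MiR-125a-3p, the scarcest tested member, had 49.8, 92.1, 87.4 and 76.0 CPM with shRNA_5bp, 62.9, 62.9, 79.5 and 77.7 CPM with shRNA_2bp, 70.9, 69.5, 72.5 and 59.0 CPM with shRNA, and 59.0, 67.1, 62.6 and 60.0 CPM with the Empty_Vector. All groups overlapped, and the lowest shRNA_5bp library rested on 49 counts. Its rise with shRNA_5bp against the Empty_Vector, 0.32 ± 0.14 (adjusted p = 0.0483), was not called in 12 of 16 fits without 1 library. Those were Empty_Vector replicates 1 to 4, shRNA replicates 1, 2 and 3, shRNA_2bp replicates 3 and 4, and shRNA_5bp replicates 2, 3 and 4, at 0.15 to 0.29. It was not called either with DESeq2 (0.26), RLE size factors (0.26), no filter (0.08) or only the 2 groups (0.23). No other difference of it was called: against the Empty_Vector it was 0.17 with shRNA_2bp (adjusted p = 0.27) and 0.13 with shRNA (adjusted p = 0.476). Between hairpins it was 0.19 with shRNA_5bp against shRNA (adjusted p = 0.242), 0.05 with shRNA_2bp against shRNA (adjusted p = 0.789) and 0.15 with shRNA_5bp against shRNA_2bp (adjusted p = 0.409). Without shRNA_5bp replicate 1, its lowest library, the value against shRNA was called at 0.33 (adjusted p = 0.0258). MiR-99a-3p had between 0 and 10 counts in each library, at most 2.03 CPM, and was not tested.

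**Figure D2:**
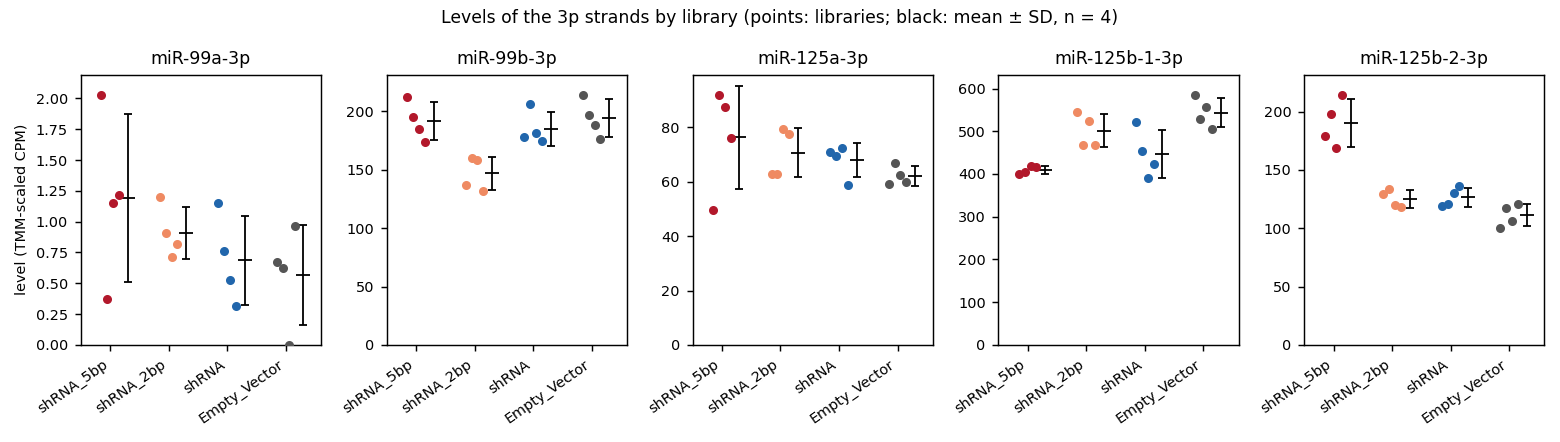
Level of each 3p strand (CPM, linear axis from 0, a separate scale per panel) in the 4 libraries of each group; points are libraries, and the black mark is the mean ± SD (n = 4). MiR-125b-2-3p is highest with shRNA_5bp (169 to 215 CPM) and miR-99b-3p lowest with shRNA_2bp (132 to 160.1 CPM), while miR-99a-3p stays at or below 2.03 CPM.

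Counted over the 9 tested members, shRNA_5bp against the Empty_Vector raised 4 and lowered 3, while 31.5% of the 483 tested miRNAs were called higher and 26.7% lower. The 4 rises came to 2 by DESeq2, with RLE size factors and with only the 2 groups, to 1 without the filter and to 6 with library totals alone. They also came to 2 in 9 of 16 fits without 1 library, those in which miR-99a-5p lost its call, since miR-125a-3p lost its call there too. Without Empty_Vector replicate 1 or 4 or shRNA_5bp replicate 3 they came to 3. The 3 falls came to 4 without the filter and to 2 with library totals alone. ShRNA_2bp raised 4 and lowered 2, against a background of 33.3% higher and 32.3% lower. Its 2 falls came to 1 in the fits in which miR-99b-5p lost its call and with library totals alone. They came to 3 without the filter and without Empty_Vector replicate 4. Its 4 rises came to 6 with library totals alone, and to 3 without the filter or without shRNA_2bp replicate 3 or 4. The unmutated shRNA raised 0 and lowered 4, against 19.7% higher and 15.1% lower. The count of 0 was from edgeR, and it was also 0 at an unadjusted p below 0.05 and by DESeq2. With library totals alone 2 rose and 2 fell, and 1 rose without shRNA replicate 1 or 2. The 4 falls came to 2 without Empty_Vector replicate 3 or shRNA replicate 2 or 3, and to 3 without shRNA replicate 1. Median log2 fold changes of the members were 0.03 with shRNA_5bp, 0.17 with shRNA_2bp and -0.07 with shRNA, beside medians of all tested miRNAs of 0.06, 0.01 and 0.04.

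Between hairpins, shRNA_5bp against shRNA raised 3 members and lowered 2, with 28.4% of all miRNAs called higher and 24.6% lower. Without the filter 2 rose and 3 fell, and without 1 library 3 to 4 rose and 2 to 3 fell. ShRNA_2bp against shRNA raised 5 and lowered 1, with 31.1% higher and 33.5% lower. These 5 rises came to 6 with RLE size factors, library totals alone or a replicate block, and to 4 without the filter. Without 1 library they ran from 4 to 6. ShRNA_5bp against shRNA_2bp raised 2 and lowered 5, with 36.9% higher and 22.8% lower. These 2 rises came to 1 without the filter and with only the 2 groups. The member medians were 0.10, 0.18 and -0.29, beside -0.0021, -0.01 and 0.16 for all miRNAs. The comparisons share groups, so their counts are not independent of each other.

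**Figure D3:**
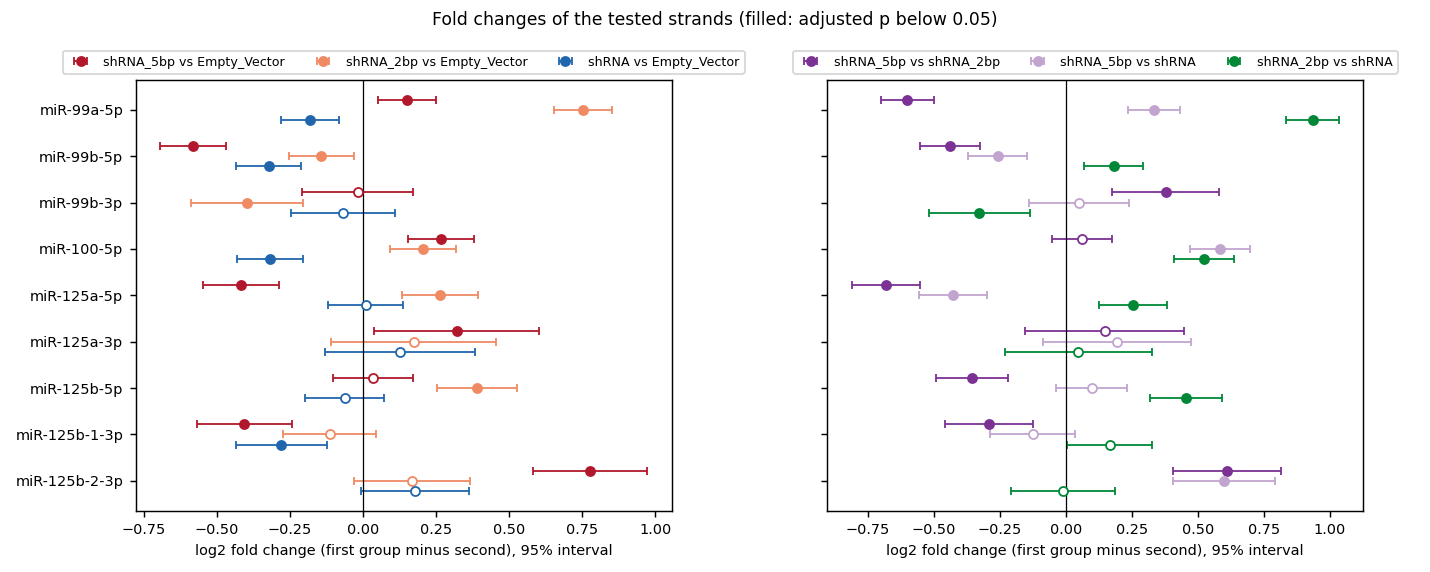
Log2 fold change of each tested member with its 95% interval, for each hairpin against the Empty_Vector (left) and between hairpins (right); the first group named is on top of the fold, and filled points have an adjusted p below 0.05. MiR-99a-5p with shRNA_2bp (0.75) and miR-125b-2-3p with shRNA_5bp (0.78) lie farthest to the right of the left panel, and miR-99b-5p with shRNA_5bp (-0.58) farthest to the left.

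Another scaling moved all members of a comparison by nearly the same amount, and so altered calls near the threshold without altering differences between members. With library totals alone, the members shifted by a median of 0.24 for shRNA_5bp, 0.18 for shRNA_2bp and 0.14 for shRNA, each against the Empty_Vector. The medians of all miRNAs then stood at 0.30, 0.19 and 0.18, and the share of higher among called miRNAs was 72.7%, 61.9% and 77.2%, in place of 54.1%, 50.8% and 56.5%. Without the filter on low counts the members shifted by -0.23 for shRNA_5bp, -0.11 for shRNA_2bp and -0.03 for shRNA against the Empty_Vector. Leaving out a library that was not in a comparison also moved all members nearly alike. For shRNA_5bp against shRNA the shift was -0.152 to -0.146 without Empty_Vector replicate 2 and -0.151 to -0.144 without replicate 3. The ratios below are taken within a library and do not depend on the scaling.

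The ratio of a guide to its opposite strand moved toward the 3p strand with shRNA_5bp at 3 of the 4 strand pairs that could be followed. The ratio of miR-125b-5p to miR-125b-1-3p moved toward the 5p strand. Both miR-125b pairs share the numerator miR-125b-5p, which holds the output of 2 genes, so neither is the strand ratio of 1 gene, and the 4 pairs are not independent. For miR-99b the 5p strand outnumbered the 3p strand 15.7, 18.7, 19.1 and 18.6 times with shRNA_5bp, 32.8, 29.3, 31.0 and 34.7 times with shRNA_2bp, 23.8, 19.7, 22.9 and 23.2 times with shRNA, and 24.0, 28.3, 27.4 and 27.1 times with the Empty_Vector. ShRNA_5bp lay lowest and shRNA_2bp highest, without overlap with any other group. The log2 ratio differed by -0.57 ± 0.10 between shRNA_5bp and the Empty_Vector (SE, limma, adjusted p = 4.48e-05 over 144 pairs) and by 0.26 ± 0.10 between shRNA_2bp and the Empty_Vector (adjusted p = 0.0404). Against shRNA it was -0.31 ± 0.10 with shRNA_5bp (adjusted p = 0.0196) and 0.51 ± 0.10 with shRNA_2bp (adjusted p = 0.000151), and between shRNA_5bp and shRNA_2bp -0.83 ± 0.10 (adjusted p = 1.59e-07).

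Some of these miR-99b calls were lost when 1 library was left out. That of shRNA_2bp against the Empty_Vector was lost without Empty_Vector replicate 1, 3 or 4 or shRNA_2bp replicate 1, 3 or 4 (0.21 to 0.27, adjusted p = 0.0501 to 0.129). That of shRNA_5bp against shRNA was lost without shRNA replicate 1 or 3 or shRNA_5bp replicate 1 (-0.30 to -0.25). The difference between shRNA and the Empty_Vector was -0.25 (adjusted p = 0.0792).

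For miR-125b-5p over miR-125b-2-3p, the ratio was 89.0, 91.2, 93.8 and 83.0 with shRNA_5bp, 146, 171, 194 and 184 with shRNA_2bp, 121, 127, 126 and 126 with shRNA, and 160.5, 152, 149.6 and 134 with the Empty_Vector. ShRNA_5bp lay far below every other group, and shRNA lay below the Empty_Vector. In log2 terms shRNA_5bp differed by -0.74 ± 0.10 from the Empty_Vector (adjusted p = 2.45e-06), by -0.49 ± 0.10 from shRNA (adjusted p = 0.00106) and by -0.95 ± 0.10 from shRNA_2bp (adjusted p = 2.36e-08). ShRNA_2bp differed by 0.47 ± 0.10 from shRNA (adjusted p = 0.000633) and by 0.21 from the Empty_Vector (adjusted p = 0.0924), which was called without shRNA_2bp replicate 1 (0.29, adjusted p = 0.0326). The difference of shRNA from the Empty_Vector was -0.25 (adjusted p = 0.0954).

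For miR-125b-5p over miR-125b-1-3p, the ratio was 39.8, 44.6, 38.0 and 42.8 with shRNA_5bp, 34.7, 48.7, 44.5 and 46.3 with shRNA_2bp, 27.5, 34.0, 42.0 and 40.6 with shRNA, and 27.5, 34.0, 28.7 and 32.2 with the Empty_Vector. Both mutated hairpins lay above the Empty_Vector. Their log2 differences from it were 0.44 ± 0.12 with shRNA_5bp (adjusted p = 0.00297) and 0.50 ± 0.12 with shRNA_2bp (adjusted p = 0.000911). With shRNA it was 0.22 (adjusted p = 0.223), and 0.35 without shRNA replicate 1 (adjusted p = 0.0377). Against shRNA it was 0.28 with shRNA_2bp (adjusted p = 0.047). That call was lost in 12 of 16 fits without 1 library, namely Empty_Vector replicates 1 to 4, shRNA replicates 1 (0.16) and 2, shRNA_2bp replicates 2, 3 and 4, and shRNA_5bp replicates 1, 2 and 4. With shRNA_5bp it was 0.21 against shRNA (adjusted p = 0.193) and -0.07 against shRNA_2bp (adjusted p = 0.635).

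For miR-125a the ratio was 80.9, 51.1, 47.5 and 54.7 with shRNA_5bp, 100.5, 113, 93.5 and 83.9 with shRNA_2bp, 83.7, 81.0, 83.2 and 92.2 with shRNA, and 96.9, 93.3, 91.1 and 86.8 with the Empty_Vector. Every shRNA_5bp library lay below all others, and the other groups overlapped. The log2 difference of shRNA_5bp was -0.68 ± 0.14 from the Empty_Vector (adjusted p = 0.00032), -0.57 ± 0.14 from shRNA (adjusted p = 0.00475) and -0.76 ± 0.14 from shRNA_2bp (adjusted p = 8.7e-05). The other differences of this pair were not called, at 0.08 with shRNA_2bp and -0.11 with shRNA against the Empty_Vector, and 0.19 with shRNA_2bp against shRNA (adjusted p = 0.671, 0.677 and 0.277).

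Of the 4 pairs, shRNA_5bp against the Empty_Vector thus moved 1 toward the 5p strand and 3 toward the 3p strand, where 41.7% of all 144 pairs were called in either direction. ShRNA_2bp moved 2 toward the 5p strand (background 40.3%), and shRNA 0 in limma (14.6%). Unadjusted, 2 of the 4 values with shRNA had a p below 0.05, miR-99b at 0.017 and miR-125b-2 at 0.0212. Between hairpins, shRNA_5bp against shRNA moved 3 toward 3p (29.2%), shRNA_2bp against shRNA 3 toward 5p (47.2%), and shRNA_5bp against shRNA_2bp 3 toward 3p (45.1%).

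**Figure D4:**
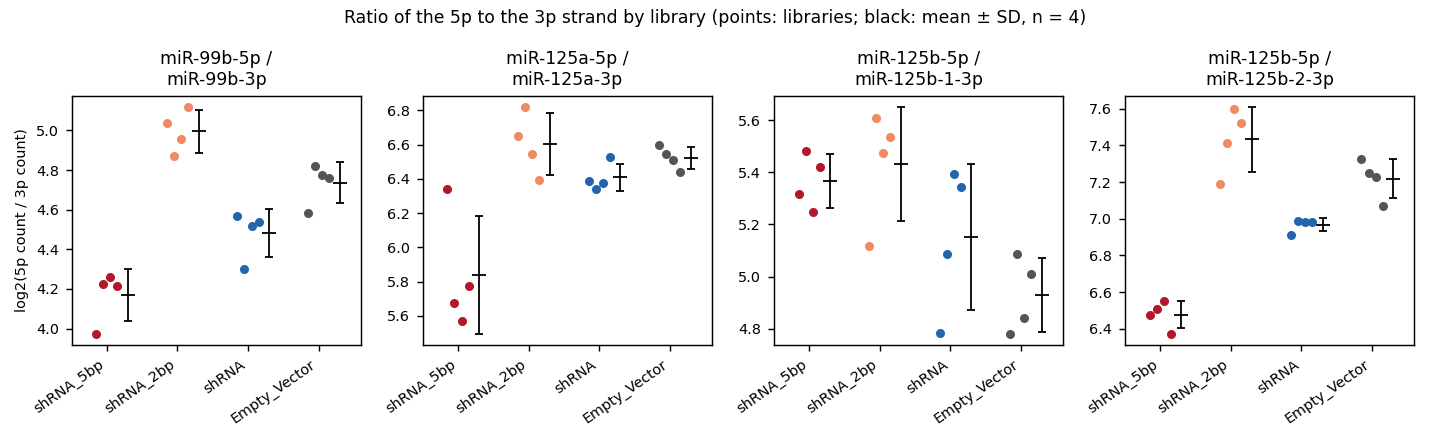
Log2 ratio of 5p to 3p counts for the 4 strand pairs, by library (points) with the mean ± SD (black, n = 4) of each group; each panel has its own scale. With shRNA_5bp the miR-99b, miR-125a and miR-125b-2 pairs sit below every other group, while the miR-125b-1 pair sits above the Empty_Vector.

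The ratios between guides of 1 cluster were compared next. In the chromosome 17 cluster, the log2 ratio of miR-99b-5p to miR-125a-5p was -0.31 ± 0.07 with shRNA_5bp, -0.55 ± 0.06 with shRNA_2bp, -0.48 ± 0.05 with shRNA and -0.15 ± 0.02 with the Empty_Vector (SD, n = 4). All 12 hairpin libraries lay below the 4 Empty_Vector libraries, which spanned -0.17 to -0.13. The differences of -0.16 with shRNA_5bp, -0.40 with shRNA_2bp and -0.33 with shRNA each had an exact two-sided permutation p of 0.0286, the smallest that 4 against 4 allow, and an adjusted p of 0.0504. That adjustment was over 30 tests, 5 ratios in 6 comparisons. None of the 30 had an adjusted p below 0.05 in this permutation test, and 17 had an unadjusted p below it. Because 4 against 4 libraries bound p so near the threshold, the number that passes says nothing on stability. It was 18 without shRNA replicate 2 or 4, where 1 more test reached the smallest p and the adjusted p of all fell.

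Within the same cluster, miR-125a-5p over let-7e-5p had a log2 ratio of 0.87 ± 0.11 with shRNA_5bp, 1.28 ± 0.11 with shRNA_2bp, 1.04 ± 0.15 with shRNA and 0.84 ± 0.07 with the Empty_Vector. Only the shRNA_2bp libraries lay apart from the Empty_Vector (difference 0.43, exact permutation p = 0.0286, adjusted p = 0.0504). MiR-99b-5p over let-7e-5p was 0.56 ± 0.06 with shRNA_5bp, 0.72 ± 0.09 with shRNA_2bp, 0.56 ± 0.14 with shRNA and 0.69 ± 0.07 with the Empty_Vector. No hairpin differed from the Empty_Vector in it beyond an exact permutation p of 0.0571 (shRNA_5bp, adjusted p = 0.0902).

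In the chromosome 16 cluster, miR-99a-5p over let-7c-5p had a log2 ratio of 1.22 ± 0.07 with shRNA_5bp, 1.68 ± 0.10 with shRNA_2bp, 0.70 ± 0.14 with shRNA and 0.92 ± 0.17 with the Empty_Vector. Both mutated hairpins lay above the Empty_Vector (differences 0.29 with shRNA_5bp and 0.76 with shRNA_2bp, exact permutation p = 0.0286 and adjusted p = 0.0504 each), and shRNA overlapped it (-0.23, exact permutation p = 0.114, adjusted p = 0.149). Taken by replicate number, shRNA lay below the Empty_Vector in 4 of 4 pairs, by -0.19, -0.32, -0.14 and -0.26, with an exact paired permutation p of 0.125, the smallest that 4 pairs allow. Let-7c-5p also comes from Mirlet7c-2 on chromosome 15, so this ratio is not of 1 cluster alone. Between the near-identical miR-99a-5p and miR-100-5p, the log2 ratio was 4.25 ± 0.05 with shRNA_5bp, 4.91 ± 0.03 with shRNA_2bp, 4.50 ± 0.07 with shRNA and 4.37 ± 0.08 with the Empty_Vector. The shRNA_2bp libraries, at 29.4 to 31.0 counts of miR-99a-5p per count of miR-100-5p, stood above all others, which ran from 18.2 to 23.7.

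**Figure D5:**
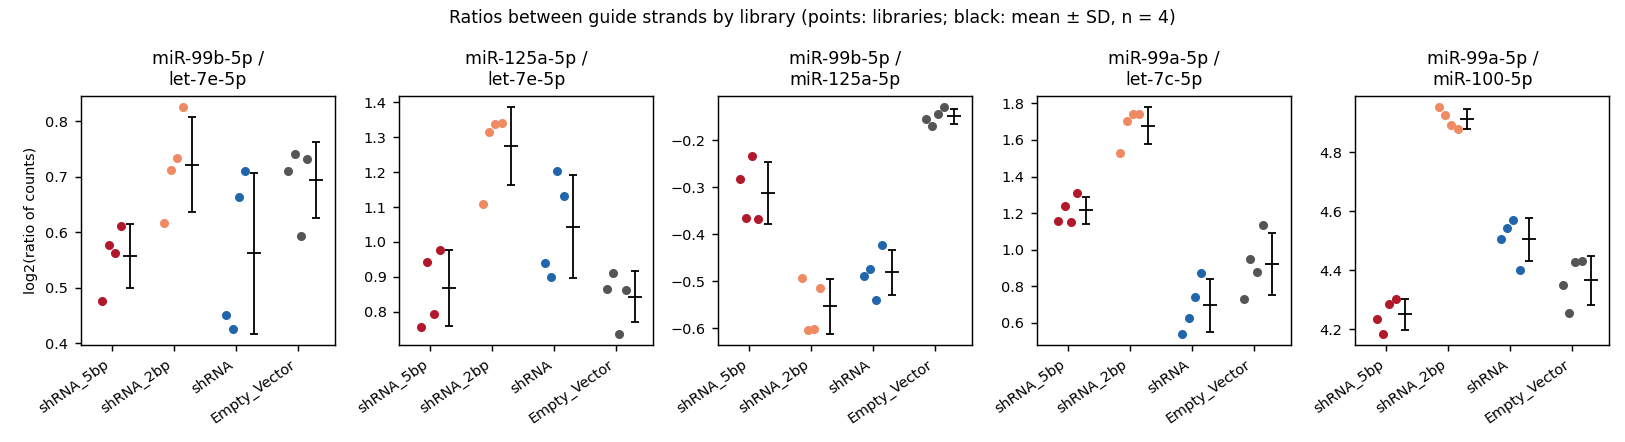
Log2 ratio of counts between guide strands, by library (points) with the mean ± SD (black, n = 4) of each group; each panel has its own scale. For miR-99b-5p over miR-125a-5p every hairpin library sits below the Empty_Vector, and for the 2 ratios with miR-99a-5p on top shRNA_2bp sits highest.

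The let-7 guides of the same clusters, whose family represses growth and cell-cycle genes in maturing cells, were lowest with shRNA_5bp for let-7a-5p and let-7e-5p. Let-7a-5p had 14986, 14793, 15913 and 13530 CPM with shRNA_5bp, 24556, 22224, 24162 and 22032 CPM with shRNA_2bp, 22675, 23107, 21303 and 19299 CPM with shRNA, and 24128, 21896, 24019 and 19357 CPM with the Empty_Vector. It was lowest with shRNA_5bp, without overlap, and fell by 0.59 ± 0.07 on the log2 scale against the Empty_Vector (adjusted p = 1.92e-08), by 0.35 with library totals alone. Let-7a-5p is also made from a gene outside these clusters, Mirlet7a-1, so this fall is not that of the chromosome 9 cluster alone. Let-7e-5p had 2405, 2450.2, 2408 and 2119 CPM with shRNA_5bp, 2942, 2864, 2957 and 2589 CPM with shRNA_2bp, 3098, 3024, 2624 and 2482 CPM with shRNA, and 3145, 3333, 3429 and 2868 CPM with the Empty_Vector. It too was lowest with shRNA_5bp and fell by 0.45 ± 0.07 (adjusted p = 3.89e-06), by 0.20 with library totals alone and by 0.67 without the filter.

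The smaller changes of these let-7 guides were less stable. Let-7e-5p also fell by 0.17 with shRNA_2bp (adjusted p = 0.0374) and by 0.19 with shRNA (adjusted p = 0.0403). Each of these calls was lost in 10 of 16 fits without 1 library, at -0.16 to -0.09 with shRNA_2bp and -0.19 to -0.08 with shRNA. The libraries that did so for both were Empty_Vector replicates 1, 2 and 3, shRNA replicates 1, 2 and 3, shRNA_2bp replicate 2 and shRNA_5bp replicates 1 and 4, with shRNA_5bp replicate 3 for shRNA_2bp and shRNA replicate 4 for shRNA. The value with shRNA_2bp changed sign with library totals alone (0.01). Let-7c-5p was -0.15 with shRNA_5bp against the Empty_Vector (adjusted p = 0.076), and it was called at -0.27 to -0.19 in 9 of 16 fits without 1 library, namely Empty_Vector replicate 2, 3 or 4, shRNA replicate 1, 2 or 3, shRNA_2bp replicate 3 or 4, or shRNA_5bp replicate 4. With shRNA_2bp it was -0.01 (adjusted p = 0.943) and with shRNA 0.05 (adjusted p = 0.663), so it stayed within 0.15 of the Empty_Vector in the fit of all libraries while miR-99a-5p, its neighbour, was 0.75 higher with shRNA_2bp. Let-7a-5p with shRNA_2bp against shRNA was 0.11 (adjusted p = 0.18), and 0.11 with a replicate block (adjusted p = 0.0327).

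Of the 6 let-7 names of the clusters 5 were tested. Against the Empty_Vector, 2 fell with shRNA_5bp, 1 with shRNA_2bp and 1 with shRNA, where 26.7%, 32.3% and 15.1% of all tested miRNAs fell, and 0 rose with any hairpin in edgeR, also at an unadjusted p below 0.05. Of the 17 other let-7 and miR-98 names 14 were tested, and 2 rose and 7 fell with shRNA_5bp, 9 rose and 2 fell with shRNA_2bp, and 0 rose and 0 fell with shRNA in edgeR. Over all tested miRNAs 31.5% rose and 26.7% fell with shRNA_5bp, 33.3% rose and 32.3% fell with shRNA_2bp, and 19.7% rose and 15.1% fell with shRNA. At an unadjusted p below 0.05, 5 were higher and 2 lower with shRNA. Their medians were -0.33 with shRNA_5bp, 0.37 with shRNA_2bp and 0.07 with shRNA.

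Among related names, miR-351-5p carries the miR-125 seed at far lower levels, 7.14 ± 3.06 CPM with shRNA_5bp, 14.1 ± 1.75 with shRNA_2bp, 16.4 ± 2.66 with shRNA and 11.6 ± 0.98 with the Empty_Vector. It fell by 0.63 ± 0.24 on the log2 scale with shRNA_5bp (adjusted p = 0.0283) and rose by 0.49 ± 0.18 with shRNA (adjusted p = 0.0336). MiR-10a-5p, grouped with the members in the broader miR-10 family, was at 12.7 ± 2.56 CPM with shRNA_5bp, 37.3 ± 4.99 with shRNA_2bp, 13.3 ± 0.83 with shRNA and 11.3 ± 2.45 with the Empty_Vector. Like miR-99a-5p it was highest with shRNA_2bp, where it rose by 1.78 ± 0.18 (adjusted p = 8.9e-10). MiR-10b-5p rose by 1.22 ± 0.31 with shRNA_5bp (adjusted p = 0.0011) and by 1.46 ± 0.29 with shRNA_2bp (adjusted p = 7.49e-05), at 7.36 ± 1.94 CPM, 8.97 ± 1.22 CPM and 3.16 ± 0.93 CPM with shRNA_5bp, shRNA_2bp and the Empty_Vector. MiR-100-3p and miR-670-5p did not pass the filter.

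The miRNAs whose levels followed each guide most closely were taken by Pearson's r of log2 CPM over the 16 libraries, among 351 candidates with a mean of at least 10 CPM over all libraries. The libraries form 4 groups and share their depth and scaling, so r mainly follows the group means and carries no p. MiR-99a-5p was most like miR-30e-3p (r = 0.98) and miR-381-3p (r = 0.97). MiR-30e-3p stood at 951 CPM with shRNA_5bp, 1806 with shRNA_2bp, 715 with shRNA and 795 with the Empty_Vector. MiR-100-5p was most like miR-379-3p (r = 0.92) and miR-27b-3p (r = 0.91), and miR-99b-5p was most like miR-375-3p (r = 0.95) and miR-674-3p (r = 0.94). MiR-125a-5p was most like miR-423-3p (r = 0.97) and miR-3968 (r = 0.91), and miR-125b-5p was most like miR-181a-1-3p (r = 0.92) and miR-378a-3p (r = 0.90). The members themselves were not among the candidates.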

How the data were processed

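Small RNA was sequenced in 16 libraries made from 100 ng of total RNA with a NEB kit, 15 PCR cycles and size selection and no molecular identifiers, per the labels' protocols. The deposited table, named as miRDeep2 counts, holds whole-number counts per mature miRNA that the authors made from the reads. Per the submitters' processing notes the tools were Bowtie 1.1.1, cutadapt 1.15, Trim Galore 0.6.0, bcl2fastq 2.20.0.422 and edgeR, on GRCm38.p6. Mismatch settings and the handling of reads that match several names are not given in the sources used here.

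From the counts, all 16 libraries were fitted together with edgeR 4.0.16 (TMM scaling, filterByExpr, robust quasi-likelihood F-test, 1 coefficient per group) in R 4.3.3, with Benjamini-Hochberg adjustment over 483 miRNAs and a threshold of 0.05. Every adjusted p in the text is from this fit unless another test is named. Ratios of 5p to 3p strands were log2 values with 0.5 added to each count, tested with limma 3.58.1 over 144 pairs. Ratios between guides were compared by exact two-sided permutation of 4 against 4 libraries. Alternatives were RLE size factors, library totals alone, DESeq2 1.42.0, no filter, only the groups compared, a replicate block, a pseudocount of 1, a minimum of 10 CPM for both strands, and leaving out each library. The scripts were tested on simulated counts.

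The members were taken by name and every one is described; among other miRNAs, those named are the let-7 partners, related names, lists, and the 2 most alike per guide. Members and lists were chosen with earlier results of these data known. Library totals of 831859 to 11139163 counts set the precision. Detection floors cover counting error only, while 95% intervals are from the edgeR fit and hold the spread between libraries.

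Replicate numbers are shared between groups. Over 360 miRNAs of at least 10 CPM, deviations from group means correlated above 0.1 for every same-numbered pair of shRNA and Empty_Vector (0.111 to 0.281) and of shRNA_2bp and shRNA (0.166 to 0.198). The labels do not state what a number marks, so for these 2 comparisons the pairing comes from the data. Values in the text are from fits without a block, and the blocked value is given where it changes a call. No libraries were duplicates, with a chi-square per degree of freedom of 3.99 to 60.5 within groups.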

Additional observations from a re-analysis of the deposited data

Results flagged for a closer look

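In 76 sets of 4 libraries, 5 had 1 library far from the other 3 by Dixon's criterion, and chance gives about 1 in 20. MiR-125b-5p in the Empty_Vector had its highest library at 17935 CPM, with the others at 15962 to 16264 CPM. The members' share of all counts in the Empty_Vector had its highest library at 12.3%, with the others at 11.2% to 11.4%. The log2 ratio of miR-125b-5p to miR-125b-2-3p with shRNA had its lowest library at 6.91, with the others at 6.98 to 6.99. The log2 ratio of miR-99b-5p to miR-99b-3p with shRNA_5bp had its lowest library at 3.98, with the others at 4.22 to 4.26. The log2 ratio of miR-125a-5p to let-7e-5p with shRNA_2bp had its lowest library at 1.11, with the others at 1.32 to 1.34.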

How the results depend on the processing

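Of the fold changes under another setting, 353 kept their direction and side of the threshold, 24 gained and 21 lost a call, and 34 changed sign. With 1 library left out the numbers were 993, 30, 60 and 69. Of the 5p to 3p ratios all 72 under another setting were the same, and with 1 library left out 361 were the same, 2 gained and 21 lost a call. The values below are log2 fold changes that changed sign. With library totals alone they became 0.091 for let-7a-5p, 0.074 for miR-99b-3p and 0.082 for miR-125b-5p with shRNA against the Empty_Vector. With shRNA_2bp they became 0.17 for let-7c-5p, 0.012 for let-7e-5p, 0.065 for miR-125b-1-3p and 0.039 for miR-99b-5p, and with shRNA_5bp 0.095 for let-7c-5p and 0.22 for miR-99b-3p. For shRNA_2bp against shRNA the value was 0.026 for miR-125b-2-3p. Without the filter on low counts they were -0.014 for miR-125a-5p with shRNA, -0.042 for let-7a-5p with shRNA_2bp, and -0.20 for miR-125b-5p and -0.084 for miR-99a-5p with shRNA_5bp, all against the Empty_Vector. Against shRNA they were then -0.064 for let-7e-5p and -0.032 for miR-125a-3p with shRNA_2bp, and -0.016 for miR-125a-3p, -0.11 for miR-125b-5p and -0.16 for miR-99b-3p with shRNA_5bp.

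MiR-100-5p with shRNA_5bp against shRNA_2bp was -0.067 without the filter, -0.0096 with RLE size factors, -0.0017 with DESeq2 and -0.092 with only those 2 groups. MiR-125b-5p with shRNA_5bp against the Empty_Vector was -0.027 with RLE, -0.030 with DESeq2 and -0.052 with 2 groups. MiR-125b-2-3p with shRNA_2bp against shRNA was 0.033 with RLE, 0.026 with DESeq2 and 0.0065 with 2 groups. MiR-125a-5p with shRNA against the Empty_Vector was -0.024 with RLE and -0.024 with DESeq2. Let-7c-5p with shRNA_2bp against the Empty_Vector was 0.0067 with RLE and 0.0052 with 2 groups, and miR-125a-3p with shRNA_5bp against shRNA_2bp was -0.019 with 2 groups. The cause was not tested beyond the common shift of the members with the scaling.

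Leaving out 1 library gave 0 to 1 strand ratios called with shRNA and 1 to 2 with shRNA_2bp against the Empty_Vector, 0 to 18 guide ratios called, and 2 to 4 members called with shRNA. Fold changes near 0 changed sign. Against the Empty_Vector with shRNA they ran from -0.15 to 0.056 for let-7a-5p, -0.026 to 0.14 for let-7c-5p, -0.072 to 0.11 for miR-125a-5p, -0.11 to 0.044 for miR-125b-5p and -0.15 to 0.011 for miR-99b-3p. With shRNA_2bp they ran from -0.066 to 0.14 for let-7a-5p and -0.10 to 0.061 for let-7c-5p, and with shRNA_5bp from -0.081 to 0.074 for miR-125b-5p and -0.11 to 0.025 for miR-99b-3p. Against shRNA with shRNA_2bp they ran from -0.040 to 0.046 for let-7e-5p, -0.037 to 0.11 for miR-125a-3p and -0.065 to 0.029 for miR-125b-2-3p, and with shRNA_5bp from -0.097 to 0.13 for miR-125b-5p and -0.12 to 0.064 for miR-99b-3p. MiR-100-5p with shRNA_5bp against shRNA_2bp ran from -0.066 to 0.11. The log2 ratio of miR-125a-5p to let-7e-5p with shRNA_5bp against the Empty_Vector ran from -0.012 to 0.062. That of miR-99b-5p to let-7e-5p ran from -0.0074 to 0.062 with shRNA_2bp against the Empty_Vector and from -0.051 to 0.044 with shRNA_5bp against shRNA.

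With a replicate block, 7 members were called for shRNA_2bp against shRNA in place of 6, and the 2 calls gained in paired comparisons are given with their values above. In the other comparisons not every same-numbered pair correlated above 0.1. With the Empty_Vector the lowest correlation of such a pair was -0.061 for shRNA_5bp and 0.0945 for shRNA_2bp. For shRNA_2bp the highest was 0.163, beside a median of -0.082 for pairs of unlike number, so pairing there is not settled. In these comparisons the block added let-7c-5p with shRNA_5bp against the Empty_Vector (-0.14, adjusted p = 0.00752) and against shRNA_2bp (-0.14, adjusted p = 0.01). It changed no other call among the members, let-7 partners and strand ratios. For guide ratios 4 pairs cannot give a paired p below 0.125, so the block says nothing of their calls. Values of the other let-7 names and of miR-10a-5p, miR-10b-5p and miR-351-5p were not recomputed under the alternatives. Depth limits the 3p strands most, above all miR-125a-3p and miR-99a-3p in the shallow shRNA_5bp libraries.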
